A study of Mus musculus with 12 samples.

Results

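The regions described here are stretches of 1000 bases that hold few measured CpGs, lie away from CpG islands and are neither fully methylated nor unmethylated in mouse blood stem and progenitor cells. Methylation was read by reduced representation bisulfite sequencing, in which MspI cuts the DNA, short fragments are kept, and bisulfite treatment makes unmethylated cytosines read as thymine. The genome (mm9) was divided into windows of 1000 bases (tiles), and the CpGs of the autosomes with at least 10 reads in all 12 libraries were summed within each tile. A tile was taken when it held 3 to 9 such CpGs, when its mean level over 9 libraries lay at 20% to 80%, and when no island tile lay within 2 tiles of it. An island tile is one with at least 20 CpGs and a mean below 10%, so it is defined from the measured levels and is not an annotated island. The rule took 8388 of 81162 tiles with at least 3 CpGs, or 10.3%, and 36732 of 921697 tested CpGs. The 9 libraries that set the level are those of Nras G12D, Tet2 knockout and the nonleukemic double mutant. The 3 leukemic libraries entered the rule only through coverage.

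The cells were sorted from bone marrow as Lin- Sca1+ cKit+ (LSK) cells, the fraction that holds blood stem cells and early multipotent progenitors, from C57BL/6 mice 6 months old. There were 4 groups of 3 libraries: Nras(G12D) with Tet2 intact, Tet2(-/-), Tet2(-/-) Nras(G12D) without leukemia, and Tet2(-/-) Nras(G12D) labelled leukemic. All groups carry the Nras mutation or the Tet2 deletion or both, and wild-type cells were not analysed here. The leukemic libraries are named so by their titles and the series design, and they also carry the label TN-BMT, which is not explained. The labels do not say that each library came from a separate animal, so a p-value here measures the spread between these libraries, which may be technical.

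Tet2 encodes a dioxygenase that oxidises 5-methylcytosine, a step on the way to unmethylated cytosine. Bisulfite sequencing reads the first oxidised product, 5-hydroxymethylcytosine, as methylated, so the levels below are the sum of both marks. Nras encodes a small GTPase, and the G12D change keeps it in the active state. Most of the mammalian genome outside islands is highly methylated, islands at promoters are mostly unmethylated, and intermediate levels are found at distal regulatory elements, at imprinted regions, in mixtures of cells and where neighbouring CpGs differ.

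Reads over the listed cytosines numbered 96300485 to 199736369 per library, and the median tested CpG had 70 to 147 reads. A member tile had a median of 293 to 524 reads per library, and intervals from counts do not cover the amplification of molecules. Before the results, 2 features of the libraries bear on the labels. Positions on chromosome Y were listed 251 to 360 times in Tet2 knockout replicates 1 and 2 and nonleukemic replicate 1, against 2 to 18 times in each other library. At 2 CpGs of members, both on chromosome 3, which carries Tet2 and Nras, the 6 Tet2-null libraries not labelled leukemic stood at most at 1.14% while the Nras G12D and the leukemic libraries stood at 84.5% or more. No member CpG parted whole groups in any other way when low meant under 10% and high over 70%. Single libraries stood apart in that sense at 84 member CpGs in leukemic replicate 3, at 31 in leukemic replicate 1, at 24 in Tet2 knockout replicate 2, and at 6 or fewer in each other library. Over all tiles such CpGs numbered 2848, 691 and 630 in the first 3 of these libraries. Members held 36732 of the 921697 tested CpGs, and these counts are not read as a trait of members.

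Most members were at the sparse end of the rule. They held 3 CpGs in 3365 tiles (40.1%) and 4 CpGs in 2018, and only 240 held 9. The mean level over the 9 libraries that chose them had a median of 63.2%, with quartiles at 45.0% and 73.2%. There were 1664 members at 20% to 40%, 1965 at 40% to 60% and 4759 (56.7%) at 60% to 80%. The members thus lean toward the methylated end of the window the rule set.

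The limits of the rule fall inside a continuous range of levels. Just inside 20% stood chr6:91910000-91910999, with 3 CpGs and a mean of 20.01% over the 9 libraries, and just outside stood chr17:66702000-66702999, with 7 CpGs and 19.99%. At the upper limit, 1612 members lay at 75% to 80%, with a median of 77.7%, and their median in the leukemic libraries was 70.3%. The 2375 tiles at 80% to 85% that were left out had medians of 82.8% and 75.8%. These values are a description of the rule.

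The members were spread over all autosomes, from 8.76% of the tiles on chromosome 16 to 11.4% on chromosome 4. The nearest island tile was a median of 53 tiles away, with quartiles at 22 and 133, while sparse tiles above 80% away from islands were a median of 64 tiles from one and sparse tiles under 20% a median of 43. Only 404 members lay 3 to 5 tiles from an island tile, and 2682 lay more than 100 tiles away. No tested tile lay beside 6440 members (76.8%).

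Where the next tile was tested, it mostly lay outside the intermediate range, but less often so than beside the sparse tiles above 80%. Of 1064 tiles directly after a member, 23.9% were under 20%, 30.3% were at 20% to 80% and 45.9% were over 80%. Directly after the sparse tiles above 80%, 12.8% of 3999 tested tiles were at 20% to 80% and 80.9% were over 80%. Among 174 members with tested tiles on both sides, both neighbours were above 80% in 45, both were under 20% in 12, and 1 was on each side of that range in 43. Isolated members made up 7885 of the runs, with 241 runs of 2 adjacent members and 7 runs of 3. The run at chr7:35278000-35280999 steps down through the window: its tiles had means of 72.7%, 35.3% and 20.2% over the 9 libraries that set the rule.

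Partial methylation of a tile had more than 1 composition. The SD between the CpGs of a member had a median of 19.5 points, against 3.53 points in the sparse tiles above 80%. All CpGs lay at 20% to 80% in 1785 members (21.3%), and 972 (11.6%) held CpGs both under 20% and over 80%. In 257 members no CpG lay at 20% to 80%, so the tile's level was a mean of high and low CpGs. Without their lowest CpG, 2504 members (29.9%) averaged above 80%, and in 154 of these a single CpG under 20% stood among CpGs all over 80%. Of the members' CpGs, 23049 (62.7%) were themselves at 20% to 80%.

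The named tiles with the largest spread inside show what such a mixture looks like. At chr11:113672000-113672999, with 5 CpGs, the CpG means over the libraries ran from 0.331% to 96.7%. At chr10:98547000-98547999, with 6 CpGs, they ran from 0.0896% to 94.3%. In both, the tile's level is the average of CpGs near the ends of the scale.

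In the evenest tiles, neighbouring CpGs shared a middle level. At chr5:74522000-74522999, 6 CpGs ran from 42.5% to 46.8%, and at chr9:114560000-114560999, 5 CpGs ran from 48.9% to 53.8%. The first of these tiles was at 53.1%, 54.0% and 45.9% in Nras G12D, at 39.4%, 37.7% and 34.2% in Tet2 knockout, at 52.1%, 19.4% and 35.5% in the nonleukemic double mutant and at 19.3%, 59.4% and 41.1% in the leukemic libraries. Its CpGs were alike while the libraries of both double-mutant groups spread widely.

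Likeness between neighbouring CpGs fell with distance. The median gap between adjacent CpGs of a member was 9.48 points within 10 bases, 13.1 points from there to 30 bases, 17.0 to 100 bases, 24.2 to 300 bases and 41.8 beyond that. In the sparse tiles above 80% the same gaps lay between 2.81 and 4.17 points. The rule fixes only the mean of a tile, and a mean above 80% leaves less room for a large gap. Of 42098 sparse tiles above 80%, 68 held CpGs both under 20% and over 80%.

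At a small share of CpGs the strands differed. Among 3401 CpGs of members read on both strands, the median difference between strands was 5.73 points, but 318 (9.35%) differed by more than 50 points. The same was true of 0.459% of 14150 such CpGs in sparse tiles above 80%. It was true of 2.41% of 291 in partly methylated sparse tiles near islands and of 0.833% of 2160 in partly methylated tiles of 10 or more CpGs. A CpG with its strands apart has a middle level and draws a tile of few CpGs toward the range of the rule. The rule thus favours such CpGs, and these shares are a description. The lower strand had a median of 1.87% and the higher strand 95.7%, and the reverse strand was the lower one at 153 CpGs and the forward strand at 165.

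Some of these CpGs lay side by side, as 111 pairs of adjacent CpGs within a member. In 109 pairs the first CpG was low on the reverse strand and the second low on the forward strand, 26 to 60 bases apart with a median of 49 bases, and 1 pair had the reverse order. The reads were 50 bases long. The lower strand stayed under 20% in all 12 libraries at 187 of the 318 CpGs, and the cause was not tested. It was thus not settled whether the strands differ in the cells or only in the libraries and reads, and these values are not read as methylation of 1 strand in the cells. The CpGs lie in 207 members (2.47%), and 8226 members remain when they are left out.

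**Figure D1:**
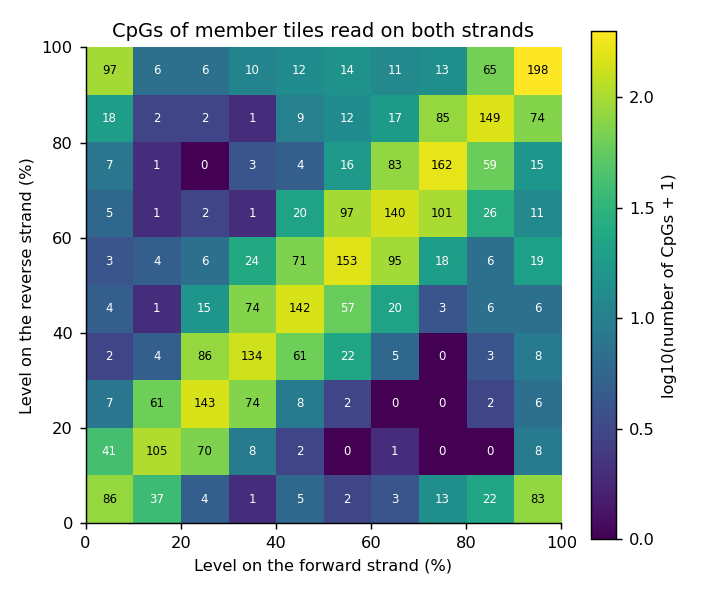
Number of CpGs in member tiles by their level on the forward strand (x axis, percent) and on the reverse strand (y axis, percent), in cells of 10 points coloured by the log10 of the number plus 1, for the 3401 CpGs with at least 10 reads on both strands in every library. Most CpGs lie along the diagonal, and separate clusters sit in the corners where 1 strand is near 0% and the other near 100%.

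Members with an even make-up varied more between libraries than mixed ones. The range of a tile's level over the 12 libraries had a median of 43.1 points in the 1785 members whose CpGs all lie at 20% to 80% and of 31.5 points in the 972 with CpGs at both ends. It was 19.4 points in the 207 members with a CpG whose strands differ. Over all members the median range was 34.3 points, with 162 members under 10 points and 628 over 60 points. Of the 162 steadiest members, 32 were among the 207 and only 1 had all CpGs at 20% to 80%. These classes were set from the same levels, so the ranges are a description.

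**Figure D2:**
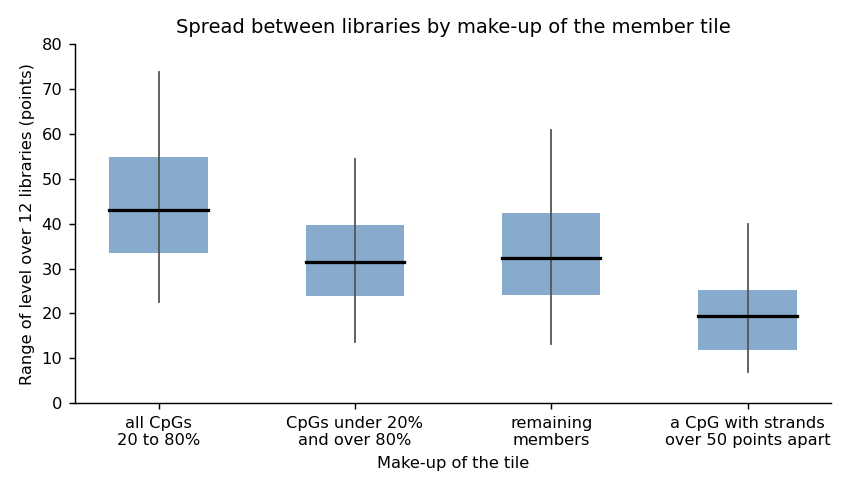
Range of the level over the 12 libraries (y axis, points) for member tiles grouped by make-up (x axis); bars span the quartiles, black lines mark medians and thin lines run from the 5th to the 95th percentile. Tiles of evenly partly methylated CpGs have the highest median (43.1 points) and tiles with strands apart, which overlap the other classes, the lowest (19.4 points).

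The members with the steadiest middle level held CpGs at unlike levels. The smallest range among named tiles was 10.3 points at chr6:9554000-9554999, where 3 of 6 CpGs had strands more than 50 points apart. Its levels were 55.5%, 56.5% and 55.4% in Nras G12D, 56.9%, 53.9% and 50.8% in Tet2 knockout, 57.8%, 56.7% and 57.0% in the nonleukemic double mutant and 57.3%, 55.6% and 61.1% in the leukemic libraries. The groups overlapped. At chr10:18246000-18246999 the range was 12.4 points, while its 7 CpGs ran from 9.83% to 93.4%. In the 5 tiles named as steady the lowest CpG was at 9.83% to 34.9% and the highest at 71.2% to 98.5%.

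At the other end stood tiles that differed between libraries of the same group. At chr5:31553000-31553999, with 8 CpGs, leukemic levels were 85.8%, 83.0% and 8.78%, while the other 9 libraries lay between 51.1% and 80.7%. At chr11:5906000-5906999, the Tet2 knockout libraries were at 74.9%, 18.3% and 91.2%. In each of these tiles 1 library stood far below its group. Over all members the median SD between the 3 libraries of a group was 5.02 points in the nonleukemic double mutant, 6.20 in Nras G12D, 7.82 in Tet2 knockout and 9.45 in the leukemic group. That SD was above 20 points in 818 members in the leukemic group and in 34 in the nonleukemic double mutant. The library farthest from the mean of the others was leukemic replicate 3 in 23.3% of members, against 19.4% of all tiles, leukemic replicate 1 in 18.1%, against 16.8%, and Tet2 knockout replicate 2 in 18%, against 12.4%. Leukemic replicate 2 was farthest in fewer members, 13.3%, than tiles in all, 21.8%.

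The mean level over the members differed by group. It was 55.3%, 55.7% and 56.1% in the Nras G12D libraries, 59.6%, 62.2% and 59.2% with Tet2 knocked out, 59.0%, 58.8% and 58.2% in the nonleukemic double mutant and 51.2%, 49.6% and 50.7% in the leukemic libraries. The leukemic libraries were the lowest 3, the Nras G12D libraries came next, and all 6 other Tet2-null libraries were higher. The group means were 50.5% ± 0.845 (SD, n = 3) in the leukemic group, 55.7% ± 0.407 in Nras G12D, 58.7% ± 0.383 in the nonleukemic double mutant and 60.3% ± 1.62 in Tet2 knockout. Tet2 knockout replicate 3 and nonleukemic replicate 1 differed by less than the SD of the Tet2 knockout libraries. Members under 20% made up 9.23% to 12.3% of the tiles in the leukemic libraries and 2.43% to 5.23% in the others.

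**Figure D3:**
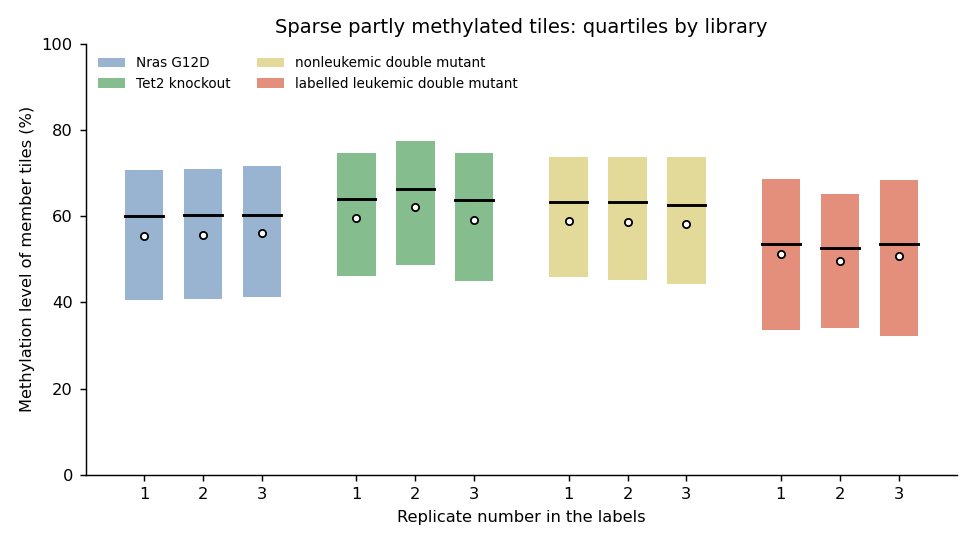
Methylation level of the 8388 member tiles (y axis, percent) in each library, ordered by group and replicate number (x axis); bars span the quartiles, black lines are medians and open circles are means. The 3 leukemic libraries have means of 49.6% to 51.2%, below every other library (55.3% to 62.2%).

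Within the double mutant, the leukemic libraries were compared with the nonleukemic ones. The leukemic libraries also carry the unexplained TN-BMT label and part from the nonleukemic ones at the 2 chromosome 3 CpGs above. Leukemia cannot be told apart from these here. The median difference of members, leukemic minus nonleukemic, was -7.13 points, and 77.9% of members had a negative difference. Over all tiles the median was -2.01 and the share 71.6%. A tile was called when the quasi-binomial model, fitted to the reads of all tiles and all 12 libraries, gave a Benjamini-Hochberg adjusted p below 0.05 and the group means differed by at least 10 points. By that rule 661 members (7.88%) fell and 34 (0.405%) rose, where 3.87% and 0.115% of all tiles did. In 2293 members (27.3%) every leukemic library was below every nonleukemic library, against 19.9% of all tiles, and in 173 (2.06%) every one was above, against 2.56%.

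The count of calls dropped whichever library of the nonleukemic group was left out. Without nonleukemic replicate 1, 2 or 3, 179, 159 and 197 members fell and 7, 9 and 8 rose; without leukemic replicate 1, 2 or 3, 816, 657 and 850 fell. In the fits without a nonleukemic library the falls made up 2.13%, 1.90% and 2.35% of members, against 0.801%, 0.688% and 0.867% of all tiles, and in those without a leukemic library 9.73%, 7.83% and 10.1%, against 6.51%, 3.8% and 5.64%. The rises were 0.0835%, 0.107% and 0.0954% of members without a nonleukemic library, against 0.0209%, 0.0234% and 0.0271% of all tiles. Limma on log2 ratios of methylated to unmethylated reads called 10 members lower (0.119%) and 0 higher, against 0.0628% and 0.00123% of all tiles. At an unadjusted p under 0.05 it gave 1115 lower (13.3%) and 74 higher (0.882%), against 11.3% and 1.43%. Without the 3 libraries with chromosome Y reads, 87 fell (1.04%) and 3 rose (0.0358%), against 0.312% and 0.0123% of all tiles.

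The members called lower differed by a large step, which the call itself selects for. Their median difference was -28.3 points, from a median level of 67.5% in the nonleukemic to 33.0% in the leukemic libraries. The libraries of the groups did not overlap in 652 of the 661. The call was made on these same libraries, so that count is a description of the called tiles. The leukemic mean was under 20% in 166 of them, and they lay on all 19 autosomes, 32 on chromosome 3. The 34 that rose went from a median of 38.3% to 69.3% and lay on 14 chromosomes, 3 of them on chromosome 3.

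The fall was not the same at every level. In bins of 5 points of the level over the 9 libraries, the median difference was largest in size at 45% to 50%, at -8.81 points. By stratum it was -5.39 points in members at 20% to 40%, -8.09 at 40% to 60% and -7.33 at 60% to 80%. The number of CpGs made little difference to the median, which lay from -6.89 to -7.36 points over 3 to 9 CpGs. The share that fell did differ, at 6.45% for 3 CpGs, 7.93% for 5, 13.04% for 7 and 12.08% for 9. Nearest to islands, at 3 to 5 tiles, the median was -8.65, and beyond 100 tiles it was -6.09. The share that fell did not follow that order, at 6.68% for 3 to 5 tiles, 8.25% for 6 to 20, 9.50% for 21 to 100 and 5.59% beyond. The 711 partly methylated sparse tiles within 2 tiles of an island had a median of -7.76 and 8.16% that fell, and the 952 partly methylated tiles of 10 or more CpGs had -4.90 and 8.09%. In the sparse tiles above 80% the median was -4.57 and 5.06% fell. The differences between these classes of tiles were not tested.

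**Figure D4:**
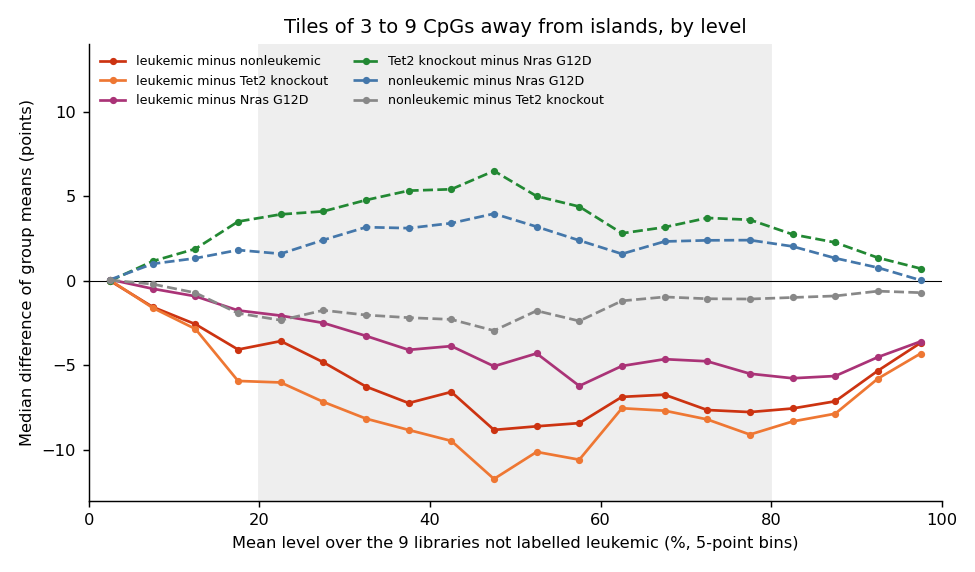
Median difference between group means (y axis, points) of the sparse tiles away from islands, in bins of 5 points of their mean level over the 9 libraries not labelled leukemic (x axis, percent), for the 6 comparisons; the grey band marks the members' range. Leukemic minus nonleukemic reaches -8.81 points and Tet2 knockout minus Nras G12D reaches 6.5 points, both at 45% to 50%.

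The largest called fall with at least 4 CpGs was at chr16:30186000-30186999, with 6 CpGs and 166 to 750 reads per library, 116 tiles from the nearest island tile. The leukemic libraries were at 10.2%, 3.49% and 0%, the nonleukemic at 80.9%, 85.8% and 72.9%, Tet2 knockout at 80.7%, 80.2% and 81.6%, and Nras G12D at 49.2%, 58.4% and 55.6%. The leukemic libraries were below all others, and Nras G12D stood between them and both other groups. The difference from the nonleukemic double mutant was -75.3 points (quasi-binomial adjusted p = 0.000103) and from Tet2 knockout -76.3 points (adjusted p = 4.16e-05). All 6 CpGs shared the pattern: their leukemic means ran from 0% to 11.5% and their nonleukemic means from 69.9% to 100%.

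At chr5:53112000-53112999, with 4 CpGs, leukemic levels were 4.18%, 16.3% and 29.7%, against 92.2%, 89.1% and 81.6% in nonleukemic libraries. Nras G12D was at 43.7%, 46.7% and 70.7% and Tet2 knockout at 55.9%, 77.0% and 75.7%. The nonleukemic libraries were the highest of all and the leukemic the lowest. The difference was -70.9 points (quasi-binomial adjusted p = 0.000941), and of the tiles named in this comparison only this one was also called by limma (adjusted p = 0.0492). The other named falls were at chr15:86064000-86064999 (-67.7 points, adjusted p = 0.00117 in the quasi-binomial model) and chr4:134870000-134870999 (-60.3 points, adjusted p = 0.000925). At the latter, Tet2 knockout replicate 2 was at 20% while the other two Tet2 knockout libraries were at 78.9% and 75.6%.

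The largest called rise with at least 4 CpGs was at chr10:126419000-126419999, 3 tiles from an island tile. The leukemic libraries were at 72.8%, 87.2% and 72.5%, the nonleukemic at 31.5%, 23.3% and 30.4%, Tet2 knockout at 38.3%, 29.6% and 37.8%, and Nras G12D at 22.4%, 47.5% and 43.9%. All leukemic libraries were above the other 9. The difference from the nonleukemic double mutant was 49.1 points (quasi-binomial adjusted p = 0.00256). Its CpGs did not move alike: at position 126419923 the leukemic mean was 90.2% against 16.3% in the nonleukemic libraries, and at 126419784 the means were 30.5% and 8.19%.

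The other named rises were less stable. They were at chr5:140273000-140273999 (37.5 points), chr10:82329000-82329999 (34.8 points) and chr11:88552000-88552999 (32.7 points), with quasi-binomial adjusted p of 0.0154, 0.0471 and 0.0483. When each library of the compared groups was left out in turn, these calls were lost in 3, 5 and 5 of 6 fits.

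**Figure D5:**
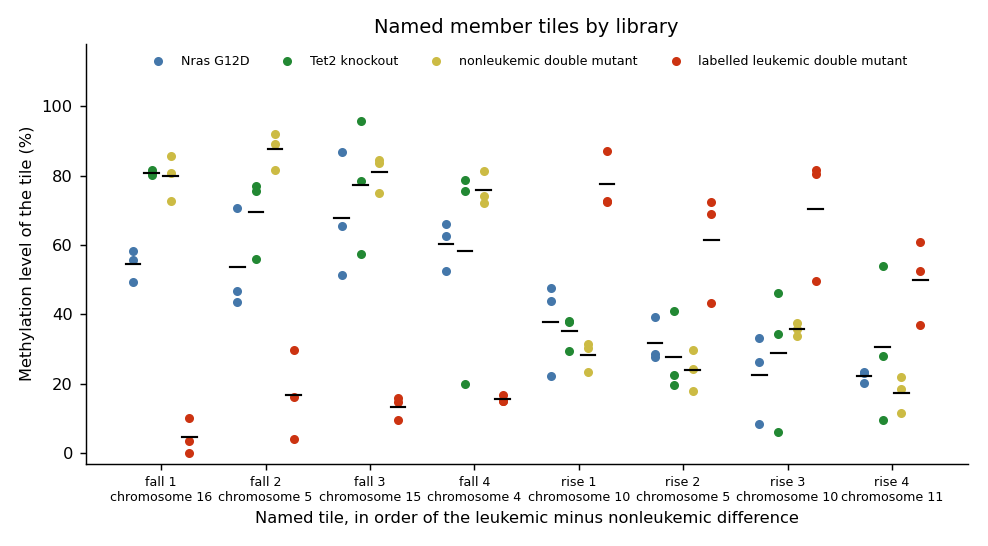
Methylation level (y axis, percent) of the 8 tiles named in the leukemic against nonleukemic comparison (x axis), 1 point per library, coloured by group, with a black line at each group mean. In each of the 4 falls the leukemic libraries lie at or below 29.7% and the nonleukemic at or above 72.2%, and in each of the 4 rises the leukemic libraries lie above the nonleukemic ones.

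Against Tet2 knockout, members were lower in the leukemic libraries by a median difference of -8.67 points, where all tiles had -2.48. By the same call 1164 members (13.9%) fell and 48 (0.572%) rose, against 7.5% and 0.158% of all tiles. In 2193 members (26.1%) every leukemic library was below every Tet2 knockout library, against 19.2% of all tiles, and in 131 (1.56%) every one was above, against 2.26%. In the other classes just given the shares wholly below were 27.6%, 24.5% and 24.9%, and wholly above 1.55%, 1.26% and 0.705%. Without Tet2 knockout replicate 2 or 3, 601 (7.16%) and 709 (8.45%) fell, against 3.38% and 4.14% of all tiles. Without leukemic replicate 2, 76 rose (0.906%), against 0.237%, and without Tet2 knockout replicate 2, 29 rose (0.346%), against 0.116%. Limma called 184 lower (2.19%) and 3 higher (0.0358%), against 1.44% and 0.0246% of all tiles. Without the 3 libraries with chromosome Y reads, which leaves 1 Tet2 knockout library that is assumed to vary like the rest, 10 fell (0.119%) and 1 rose (0.0119%), against 0.0271% and 0.00123% of all tiles.

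At chr6:113640000-113640999, with 5 CpGs, the leukemic libraries were at 8.21%, 6.06% and 0.659% and Tet2 knockout at 85%, 69.3% and 86.6%. Nras G12D was at 68.8%, 68.9% and 71.7% and the nonleukemic double mutant at 59.5%, 67.2% and 65.3%. The leukemic libraries stood alone below 10%. The difference was -75.3 points from Tet2 knockout (quasi-binomial adjusted p = 3.04e-05) and -64.8 points from Nras G12D (adjusted p = 0.000253).

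A pair of adjacent members on chromosome 6 fell over more than 1 tile. At chr6:88067000-88067999, with 7 CpGs, the leukemic libraries were at 16.2%, 3.90% and 20.8%, Tet2 knockout at 81.5%, 94.2% and 85.4%, the nonleukemic double mutant at 76.8%, 74.1% and 66.2%, and Nras G12D at 55.4%, 62.2% and 49.5%. At chr6:88066000-88066999, with 6 CpGs, the leukemic libraries were at 18.1%, 4.12% and 19.4% and Nras G12D at 68.2%, 62.0% and 76.2%. The leukemic libraries lay below all others in both tiles. The first differed from Tet2 knockout by -73.4 points (quasi-binomial adjusted p = 6.81e-05) and the second from Nras G12D by -54.9 points (adjusted p = 0.000796). The 13 CpGs run from position 88066562 to 88067232, and their leukemic means lay between 6.80% and 23.2%.

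Of the named rises over Tet2 knockout, the largest was at chr2:71511000-71511999, with 4 CpGs. The leukemic libraries were at 96.2%, 75.5% and 96.3% and Tet2 knockout at 32.4%, 47.9% and 41.1%, while Nras G12D was at 42.8%, 53.6% and 58.2% and the nonleukemic double mutant at 51.2%, 63.2% and 59.9%. The leukemic libraries were above all others, by 48.8 points from Tet2 knockout (quasi-binomial adjusted p = 0.00294). The remaining named tiles of this comparison were chr15:73007000-73007999 (-68.0 points, quasi-binomial adjusted p = 0.000385), chr10:126419000-126419999 (42.3 points, adjusted p = 0.005), chr10:82329000-82329999 (41.7 points, adjusted p = 0.0269) and chr2:10280000-10280999 (38.3 points, adjusted p = 0.00695).

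Against Nras G12D, which has intact Tet2 and no leukemia label, the members' median difference was -4.59 points, where all tiles had -1.41. Here 279 members (3.33%) fell and 27 (0.322%) rose, against 1.96% and 0.0887% of all tiles. In 1485 members (17.7%) every leukemic library was below every Nras G12D library, against 14.6% of all tiles, and in 269 (3.21%) every one was above, against 2.94%. In the other classes just given the shares wholly below were 19.7%, 16.9% and 19.3%, and wholly above 2.11%, 3.57% and 1.21%. Without Nras G12D replicate 1, 2 or 3, 92 (1.10%), 57 (0.680%) and 63 (0.751%) fell, against 0.489%, 0.271% and 0.354% of all tiles. In the same fits 5, 3 and 5 rose (0.0596%, 0.0358% and 0.0596%), against 0.0234%, 0.0136% and 0.0185%. Without leukemic replicate 1, 423 fell (5.04%) and 51 rose (0.608%), against 4.21% and 0.187%. Limma called 0 in either direction, as over all tiles (0%). At an unadjusted p under 0.05 it gave 728 lower (8.68%) and 112 higher (1.34%), against 10.4% and 2.2% of all tiles. Without the 3 libraries with chromosome Y reads 48 fell (0.572%) and 2 rose (0.0238%), against 0.243% and 0.0148% of all tiles.

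The members called lower than Nras G12D differed by a median of -30.0 points, from 64.6% to 29.4%, a step that the call selects for. Beside the tiles already given, the named falls were chr5:112024000-112024999 (-60.1 points, quasi-binomial adjusted p = 0.0192) and chr7:105319000-105319999 (-57.0 points, adjusted p = 0.00632). The named rises were chr10:82329000-82329999 (47.9 points, quasi-binomial adjusted p = 0.027), chr12:103607000-103607999 (40.2 points, adjusted p = 0.0133), chr10:126419000-126419999 (39.6 points, adjusted p = 0.0168) and chr2:71511000-71511999 (37.8 points, adjusted p = 0.0301). At chr12:103607000-103607999 the leukemic libraries were at 52.8%, 69.0% and 65.9%, the nonleukemic at 44.3%, 22.9% and 48.4%, and Nras G12D at 16.6%, 20.5% and 30.1%. The nonleukemic libraries were below all leukemic ones and overlapped Nras G12D.

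The 3 comparisons share the leukemic libraries, so their values stand side by side. In 904 members (10.8%) each leukemic library was below each of the 9 others, against 8.57% of all tiles, and in 45 (0.536%) each was above, against 0.492%. The 904 had a median of 36.6% in the leukemic group and 65.3% over the other libraries, and in 202 the leukemic mean was under 20%. The leukemic group had the lowest mean of the 4 groups in 59.9% of members and 55.2% of all tiles.

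The effect of losing Tet2 was addressed by Tet2 knockout against Nras G12D, which differ in both genes. These libraries set the members' levels, so the values are a description. The members were higher in Tet2 knockout by a median of 4.02 points, where all tiles had 0.418, and 70.8% of members had a positive difference. The classes most like them did the same. Partly methylated sparse tiles near islands had 4.02 points and 70.9%, and partly methylated tiles of 10 or more CpGs 2.97 points and 70.5%. The quasi-binomial model called 0 members, as it did of all tiles (0%), with a smallest adjusted p of 0.113 among members. At an unadjusted p under 0.05 it gave 815 members higher (9.72%) and 65 lower (0.775%), against 5.03% and 0.952% of all tiles. Limma gave 344 (4.10%) and 21 (0.250%), against 4.82% and 1.15%, so the members' share of higher tiles exceeded that of all tiles in the former test and not in the latter. In 1263 members (15.1%) every Tet2 knockout library was above every Nras G12D library, against 8.94% of all tiles, and in 155 (1.85%) every one was below, against 2.49%. Among partly methylated sparse tiles near islands these shares were 14.1% and 1.69%, and among partly methylated tiles of 10 or more CpGs 12.8% and 1.89%.

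The difference was widest in the middle of the range. Its median was 4.45 points in members at 20% to 40%, 5.23 at 40% to 60% and 3.38 at 60% to 80%, and 1.05 in the sparse tiles above 80%. Members whose CpGs all lie at 20% to 80% had a median of 5.85 points, members with CpGs at both ends 3.18, and the 207 members with strands apart 0.869. Levels near 0% or 100% leave less room for a difference in points.

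The members with the smallest p in this comparison missed the call. At chr15:12807000-12807999, with 5 CpGs, Nras G12D was at 33.0%, 52.2% and 44.5%, Tet2 knockout at 83.6%, 76.9% and 91.2%, the nonleukemic double mutant at 69.3%, 71.0% and 70.2%, and the leukemic libraries at 32%, 33.8% and 30.2%. All 6 Tet2-null libraries not labelled leukemic were above all 6 others. The difference between Tet2 knockout and Nras G12D was 40.7 points (quasi-binomial adjusted p = 0.113). At chr16:57391000-57391999, with 7 CpGs, the difference was 7.95 points (adjusted p = 0.113), at 27013 to 93869 reads per library, far above the depth of other members.

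On chromosome 3, downward differences that missed the call rested on single CpGs. At chr3:137785000-137785999, with 4 CpGs, Nras G12D was at 93.5%, 95.3% and 99.4%, Tet2 knockout at 59.0%, 61.3% and 67.1%, the nonleukemic double mutant at 69.8%, 63.2% and 58.4%, and the leukemic libraries at 90.5%, 98.8% and 100%. The difference between Tet2 knockout and Nras G12D was -33.6 points (quasi-binomial adjusted p = 0.401). The CpG at position 137785715 averaged 0% in Tet2 knockout and 0.379% in the nonleukemic double mutant, against 92.4% in Nras G12D and 99.6% in the leukemic libraries, while the other 3 CpGs of the tile were at 89.6% or more in every group. At chr3:137777000-137777999 the CpG at 137777111 behaved alike, at 0.278%, 0.766%, 96.3% and 95% in the same order of groups, and the other 4 CpGs were at 86.1% or more. Bisulfite reads of 1 strand do not tell an unmethylated cytosine from a thymine in the DNA. Which was read at positions 137785715 and 137777111 was not tested, so the values there are not taken as loss of methylation. These are the 2 CpGs of members that part whole groups. Leaving out chromosome 3 gave 628 falls (7.78%) and 31 rises (0.384%) in the leukemic against the nonleukemic libraries, where 3.88% and 0.111% of all tiles did so. Both tiles met the call as leukemic rises. Over the nonleukemic libraries the rises were 32.7 and 21.6 points (quasi-binomial adjusted p = 0.00806 and 0.0255). Over Tet2 knockout they were 34.0 and 23.9 points (quasi-binomial adjusted p = 0.0059 and 0.0156). They are thus among the 34 and 48 called rises, of which 3 and 4 lay on chromosome 3. These rises are not taken as gain of methylation.

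At chr2:10280000-10280999, with 4 CpGs, Tet2 knockout was at 54.3%, 46.2% and 57.6%, Nras G12D at 98.2%, 96.0% and 100%, the nonleukemic double mutant at 67.9%, 91.0% and 65.1% and the leukemic libraries at 94.0%, 79.1% and 100%. The Tet2 knockout libraries were below all others. The difference from Nras G12D was -45.4 points (quasi-binomial adjusted p = 0.182). It lay in 2 neighbouring CpGs, at 26.9% and 25% in Tet2 knockout, while the other two were at 97.4% and 100%.

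The nonleukemic double mutant was also compared with Nras G12D, a difference of Tet2 with Nras G12D in both. The members' median difference was 2.48 points, where all tiles had 0.144. It was 2.24 points in partly methylated sparse tiles near islands and 1.33 in partly methylated tiles of 10 or more CpGs. The quasi-binomial model called 0 members, against 0.00246% of all tiles, with a smallest adjusted p of 0.0799 among members. At an unadjusted p under 0.05 it gave 512 higher (6.10%) and 96 lower (1.14%), against 2.08% and 0.773% of all tiles, and limma gave 163 (1.94%) and 38 (0.453%), against 1.73% and 0.956%. In 1202 members (14.3%) every double-mutant library was above every Nras G12D library, against 8.45% of all tiles, and in 290 (3.46%) every one was below, against 3.58%.

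Among members that missed the call, chr6:53587000-53587999 was at 48.5%, 64.0% and 52.8% in Nras G12D, at 93.9%, 87.1% and 91.0% in the nonleukemic double mutant, at 89.6%, 91.2% and 88.2% in Tet2 knockout and at 67.0%, 81.9% and 63.3% in the leukemic libraries. The Tet2-null libraries not labelled leukemic were the highest 6. The difference from Nras G12D was 35.6 points (quasi-binomial adjusted p = 0.154). At chr1:91832000-91832999, with 9 CpGs, the nonleukemic libraries were at 58.3%, 62.3% and 63.5% and the leukemic at 53.6%, 54.6% and 55.6%, against 44.6%, 45.4% and 45.2% in Nras G12D and 42.4%, 45.9% and 45.2% in Tet2 knockout. Both double-mutant groups were above both single mutants there, by 16.3 points for the nonleukemic libraries over Nras G12D (quasi-binomial adjusted p = 0.0799).

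Tet2 knockout and the nonleukemic double mutant together stood above Nras G12D in all 6 libraries in 523 members (6.24%), against 2.96% of all tiles, and below it in 55 (0.656%), against 0.612%. The 523 had medians of 69.9% in Tet2 knockout and 66.4% in the nonleukemic double mutant, against 50.0% in Nras G12D and 45.4% in the leukemic group. Since they were picked for high levels in the nonleukemic double mutant, nothing is read from its distance to the leukemic group. Picked instead by Tet2 knockout above Nras G12D in every library, libraries that the leukemic against nonleukemic comparison does not use, 1263 members had a median leukemic minus nonleukemic difference of -10.5 points. It was -6.71 in the 6970 members where those groups overlapped and -2.86 in the 155 where Tet2 knockout was below. Beside Nras G12D that order did not appear. In the same 3 sets the median levels were 47.8%, 54.4% and 58.3% in the leukemic group and 53.3%, 62.0% and 67.2% in Nras G12D. In the nonleukemic double mutant they were 62.8%, 63.6% and 62.2%. Nras G12D was part of the pick, so nothing is read from its distance to the leukemic group. The leukemic levels rose over the sets as the Nras G12D levels did. Tet2 knockout and Nras G12D also set the members' levels, so the order of the leukemic minus nonleukemic differences is a description. The differences between these sets were not tested.

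Nras activation on a Tet2-null background was addressed by the nonleukemic double mutant against Tet2 knockout. The members' median difference was -1.46 points, where all tiles had -0.190. The quasi-binomial model called 0 members and 0% of all tiles, with a smallest adjusted p of 0.196 among members. At an unadjusted p under 0.05 it gave 87 higher (1.04%) and 269 lower (3.21%), against 0.982% and 2.38% of all tiles, and limma gave 20 (0.238%) and 90 (1.07%), against 1.21% and 2.79%. In 663 members (7.90%) every double-mutant library was below every Tet2 knockout library, against 7.07% of all tiles, and in 314 (3.74%) every one was above, against 4.15%. Both shares without overlap lie near those of all tiles.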

How the data were processed

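The libraries are reduced representation bisulfite libraries of sorted LSK cells (MspI digest, fragments of 150 to 400 bases, single reads of 50 bases, per the labels' protocols). Per the submitters' processing notes, Bismark and the build mm9 (NCBIM37) were used. The deposited tables give, per cytosine position and strand, the read coverage as a count and the percent of reads called C and T, as the authors made them. Every listed position had at least 10 reads, and at 1.11% to 2.77% of positions per library the percents of C and T did not add up to all reads. Filters and versions upstream are not given in the sources used here.

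From these, methylated reads were recovered as coverage times percent C, the strands of each CpG were summed, and tiles were formed as described. Sex chromosomes were left out of the tests. Each tile was fitted with a quasi-binomial model over all 12 libraries (8 residual degrees of freedom), its dispersion moderated as in limma (prior degrees of freedom 5.07) and kept at 1 or above, with an F test per comparison. P-values were adjusted by Benjamini-Hochberg over all 81162 tiles. The model was tested on simulated data. A level is methylated over all reads, and a group mean weights libraries equally. Strand differences were taken where both strands had at least 10 reads in every library. Limma was run on log2((methylated + 1)/(unmethylated + 1)).

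The members and lists were chosen with earlier results of these data known. Named tiles are, per comparison other than nonleukemic against Tet2 knockout, for which none are named, the 4 called members that rose most and the 4 that fell most, given at least 4 CpGs and no overlap of libraries, or, with none called, the 2 with the smallest p in that direction. The steady (5), mixed and even (3 each) and unstable (4) tiles have at least 5 CpGs and are ranked on range, SD between CpGs and SD between replicates; the steady, mixed and even ones have a mean at 40% to 60%. The 3 longest runs and the 2 tiles on each side of each limit complete the rule. Library numbers shared between groups were checked for pairing (see the closing section). Alternatives were other coverage limits, tests, tile positions and membership limits, thinning to 10 reads per CpG, and each library left out. Leaving out CpGs with strands apart, and using only members with all CpGs at 20% to 80%, were added after seeing the data. No mm9 genome or annotation was used, so tiles carry no gene names and no sequence is shown. R 4.3.3 with limma 3.58.1 and Python 3.11.15 with SciPy 1.17.1, pandas 2.3.3 and NumPy 2.4.6 were used.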

Additional observations from a re-analysis of the deposited data

How the results depend on the processing

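No median difference of members changed sign under the settings run. Whether members exceeded all tiles depended on the test. At an unadjusted p under 0.05, limma gave 8.68% of members against 10.4% of all tiles lower in leukemic than in Nras G12D libraries. It gave 4.10% against 4.82% higher in Tet2 knockout than Nras G12D, and 1.07% against 2.79% lower in nonleukemic than Tet2 knockout. Leukemic lower than nonleukemic (13.3% against 11.3%) and nonleukemic higher than Nras G12D (1.94% against 1.73%) kept members above. Over the settings, the median difference of members ran from -8.56 to -6.67 points for leukemic minus nonleukemic, -10.7 to -7.71 for leukemic minus Tet2 knockout, -5.14 to -4.17 for leukemic minus Nras G12D, 3.19 to 5.85 for Tet2 knockout minus Nras G12D, 2.22 to 3.47 for nonleukemic minus Nras G12D and -2.32 to -0.706 for nonleukemic minus Tet2 knockout. Shares in either direction are given as members against all tiles. Counts of calls depended on the test and the depth. In the order leukemic against nonleukemic, Tet2 knockout and Nras G12D, members called lower and higher were 10 and 0, 184 and 3, and 0 and 0 by limma (0.119% against 0.0641%, 2.23% against 1.46%, and 0% against 0%), and 80 and 2, 31 and 0, and 0 and 0 in fits on the 6 libraries compared (0.978% against 0.272%, 0.370% against 0.0862%, and 0% against 0.0037%). They were 56 and 1, 201 and 5, and 14 and 0 at 10 reads per CpG (0.680% against 0.322%, 2.46% against 1.18%, and 0.167% against 0.111%), and 87 and 3, 10 and 1, and 48 and 2 without the 3 libraries with chromosome Y reads (1.07% against 0.324%, 0.131% against 0.0283%, and 0.596% against 0.258%). Fisher's exact test on pooled reads, which ignores the spread between libraries, gave 3266 and 358, 3784 and 401, and 2497 and 614, and 2329, 1605 and 1458 calls in the other three comparisons (43.2% against 17.2%, 49.9% against 20.1%, 37.1% against 15.5%, 27.8% against 5.12%, 19.1% against 3.2% and 17.4% against 3.0%). For the named tiles, 22 of 190 refits lost the call of a fall and 72 of 189 that of a rise. Tet2 knockout against Nras G12D had 1 call at a coverage minimum of 20 and 1 with tiles shifted by 500 bases.

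With each library of the compared groups left out in turn, calls against the nonleukemic group ranged from 159 to 850 lower and 7 to 50 higher, against Tet2 knockout from 601 to 1388 and 29 to 76, and against Nras G12D from 57 to 423 and 3 to 51. The falls were 1.90% to 10.1% of members against 0.688% to 6.51% of all tiles, 7.16% to 16.5% against 3.38% to 10.3%, and 0.680% to 5.04% against 0.271% to 4.21%. The rises were 0.0835% to 0.596% against 0.0209% to 0.175%, 0.346% to 0.906% against 0.101% to 0.237%, and 0.0358% to 0.608% against 0.0136% to 0.187%. The nonleukemic double mutant against Tet2 knockout had 0 to 1, with the 1 call made without nonleukemic replicate 3, and the other two comparisons 0 to 0. The medians ran from -7.55 to -6.74, -9.07 to -7.71, -4.82 to -4.17 (the last without leukemic replicate 2), 3.28 to 4.53, 2.29 to 2.71 and -2.02 to -0.706 in the order above.

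Other limits of the rule changed the number of members and so the counts: at 30% to 70% there were 4719 members with 352 and 20, 633 and 24, and 137 lower against Nras G12D (7.88%, 13.9% and, for the falls, 2.90%, against 3.99%, 7.65% and 1.96% of all tiles), and with 5 to 9 CpGs 3005 members with 296 and 14, 478 and 23, and 127 and 12 (10.3%, 16.7% and 4.63%, against 3.99%, 7.65% and 2.05%). The 1785 members with all CpGs at 20% to 80% gave 165 and 11, 285 and 10, and 66 and 9 (9.86%, 16.5% and 4.2%), with medians of -8.56, -10.7, -5.14, 5.85 and 3.47 in the first 5 comparisons. With the level set on Nras G12D alone, the nonleukemic minus Nras G12D median was 3.14 over 9019 members. In a fit with the replicate number as a block, calls were 590 and 28, 1120 and 50, and 211 and 19 (7.37% against 3.78%, 13.9% against 7.64%, and 2.74% against 1.73%), and 0 in the other comparisons. Same-numbered libraries of different groups had correlations of their deviations from -0.0123 to 0.0231, and 5 of 12 libraries correlated best with their own number, so the numbers were not taken to pair the libraries. Depth limited the calls, as the counts at 10 reads per CpG show.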
